A study of Mus musculus with 21 samples.

Results

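The nuclear-encoded genes of the mitochondrial respiratory chain were followed across 7 groups of mouse C3H/10T1/2 cells that carry wild-type or mutant histone H2B. Members were taken by symbol from a table of transcript abundance: names of the Nduf subunit series (complex I), Sdha to Sdhd (complex II), the Uqcr genes and Cyc1 (complex III), and Cox4 to Cox8 (complex IV). Of 69 symbols that matched, 64 had a mean of at least 1 TPM (transcripts scaled to a fixed total per library, corrected for transcript length) over the 21 libraries. They are 64 of the 12192 genes tested, from 24091 in the table. Complex I has 37 of them, complex II 4, complex III 9 and complex IV 14.

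The respiratory chain passes electrons from NADH and succinate to oxygen in the inner mitochondrial membrane. Complex I (NADH dehydrogenase) and complex II (succinate dehydrogenase) feed ubiquinone, complex III (the cytochrome bc1 complex) passes the electrons to cytochrome c, and complex IV (cytochrome c oxidase) reduces oxygen. Complexes I, III and IV pump protons, and the ATP synthase uses the resulting gradient. A few core subunits are encoded by mitochondrial DNA and all others, including every gene described here, by the nucleus. Their transcription is known to depend on the factors NRF1 and GABP, on the nuclear receptor ESRRA and on the coactivator PGC-1α.

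C3H/10T1/2 is a line of multipotent mesenchymal cells from mouse embryo. The groups are named by H2B genotype: wild type (WT), and 3 glutamates (E71, E76, E113), each replaced by lysine in a group ending in K or by glutamine in a group ending in Q. E113 belongs to the acidic patch, a nucleosome surface used by many chromatin-binding proteins, and E76K is a change found in human cancers. Each group has 3 libraries, which the series calls independent biological replicates. All were grown in the same medium with serum, with no treatment given in the labels. Only TPM were used, so the depth behind each value is unknown. How the mutant histones were introduced, whether the cells kept their own H2B and whether a group is 1 clone are not given in the sources used here, so a substitution and a cell line that carries it cannot be told apart.

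Of 10 markers of mesenchymal progenitors, 8 or 9 per group had a mean of at least 1 TPM. Nt5e (CD73) was below 1 TPM in every library. Thy1 (CD90) was 66.0, 65.5 and 66.4 TPM in WT but 0.00, 0.0538 and 0.183 in E71K, 0.418, 1.23 and 1.24 in E71Q and 0.45, 0.622 and 0.344 in E76Q. The 5 epithelial markers summed to 11.6 to 13.0 TPM in WT and to 0.622 to 5.49 in the mutant libraries, with 2 of 5 at a mean of 1 TPM or more in WT. Their part in the comparisons with WT was not tested. The 5 brown fat markers summed to at most 0.489 TPM in any library and the 8 striated muscle markers to at most 9.02, so defining genes of these 2 tissues rich in mitochondria were near 0. In bulk RNA, fewer cells of a type and less RNA per cell cannot be told apart.

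The locus Mir6236, listed as a microRNA gene, took 2.19% to 30.6% of a library's TPM, with the highest shares in E71K replicate 2 (30.6%), E71Q replicate 1 (21.2%) and E76Q replicate 3 (15%). Since TPM add up to a fixed total, a larger share of 1 locus lowers the others. Each count is therefore given also after a median-ratio rescaling, which sets the typical gene of 8056 well-expressed genes level between libraries, with factors of 0.753 to 1.124. In addition, 4 libraries lay apart from their mates on the main axis of variation within groups (E71K replicate 3, E71Q replicate 1, E76K replicate 3 and E113Q replicate 3), and counts without them are given too. On that axis WT lay at -30.7 to -28.1, and E76Q and E113K at 14.4 to 18.5.

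In WT, members other than 3 tissue isoforms ranged from 30.9 ± 2.30 TPM for Ndufa11 to 1182 ± 49.7 (SD, n = 3) for Ndufa4. Between members these levels are per transcript length. The highest in WT after Ndufa4 were Cox8a (1076 ± 39.2), Cox6c (946 ± 52.8) and Cox4i1 (863 ± 32.1), all of complex IV. The genes of complex II lay between 111 ± 3.22 for Sdhd and 153 ± 9.0 for Sdhb. Averaged over the 21 libraries, 3 members lay just above the threshold of 1 TPM: Cox6a2 at 2.91, Cox7a1 at 2.92 and Cox7b2 at 4.52. Just below were Ndufa4l2 at 0.96 and Cox4i2 at 0.59, with Cox8b at 0.17, Cox6b2 at 0.11 and Cox8c at 0.00. The 64 members together made up 1.95% ± 0.0701 of TPM in WT, 2.56% ± 0.217 in E76Q, 2.53% ± 0.275 in E76K and 1.78% ± 0.0385 in E113K. The means of E71K (1.97% ± 0.477), E71Q (2.10% ± 0.359) and E113Q (2.00% ± 0.0357) differed from that of WT by less than the larger SD of the pair.

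Each mutant was compared with WT by limma on log2(TPM + 1), with Benjamini-Hochberg adjusted p below 0.05 as the call. A fold change is the difference between 2 groups' means on that scale, with its standard error (SE) after ±. "Rose" and "fell" refer to genes called. In E76Q 27 members rose and 3 fell (42.2% and 4.69% of members), where 22% and 22.4% of all tested genes did. The other mutants had 7 to 13 calls among members. In E76K 12 rose and none fell, against 23.5% and 9.67% of all genes, and in E113K 1 rose and 12 fell (1.56% and 18.8%), against 30.3% and 20.7%. In E71K 3 rose and 5 fell (background 12.5% and 14.2%), in E71Q 3 and 7 (20.7% and 23.5%) and in E113Q 3 and 4 (17.9% and 12.7%). Thus the rises in E76Q were the only share of members above the share of all genes called in the same direction on the deposited scale. In E113K the share of members that rose was below that of all genes, and the share that fell was near it.

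After the rescaling the same 2 mutants stood apart. In E76Q 42 members rose and 6 fell (65.6% and 9.38%), against 30.9% and 28.6% of all genes. In E113K 1 rose and 36 fell (1.56% and 56.2%), against 31.5% and 30.7%. The other 4 stayed near or below their background: 15 rose and 7 fell in E76K (23.9% and 21.1% of all genes), 8 and 13 in E71K (21.6% and 20.5%), 19 and 15 in E71Q (29.3% and 29.7%), and 7 and 13 in E113Q (24.3% and 21.5%).

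**Figure D1:**
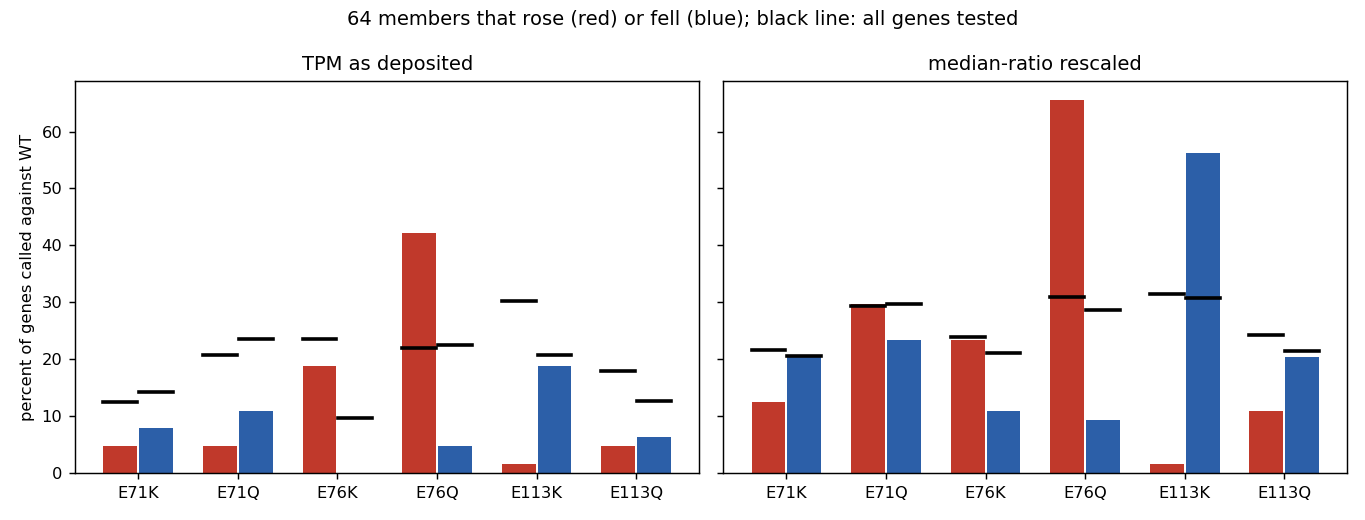
Share of the 64 respiratory chain members that rose (red bars) or fell (blue bars) against WT in each mutant, in percent, on the deposited TPM (left) and after median-ratio rescaling (right); black lines are the shares of all 12192 genes tested. The red bar of E76Q is above its line in both panels (42.2% and 65.6%), and the blue bar of E113K is above its line only after rescaling (56.2%).

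The median log2 fold change of the 64 members was 0.37 in E76Q, where that of all tested genes was 0.02, and -0.10 in E113K, where all genes had 0.13. In E76K it was 0.22 against 0.16, in E71K -0.06 against 0.00, in E71Q 0.09 against 0.00 and in E113Q 0.02 against 0.06. After rescaling the member medians were 0.36 in E76Q, -0.24 in E113K and 0.06 in E76K, with all genes between 0.00 and 0.02. E76Q had the highest group mean for 33 of the 64 members and E113K the lowest for 31. On the rescaled values these were 39 and 40. The same counts over all tested genes are not given here, so these do not set the members apart from other genes.

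By library, the median of complex I members relative to WT was 0.41, 0.37 and 0.17 in E76Q, that of complex II 0.48, 0.46 and 0.41, that of complex III 0.39, 0.43 and 0.28, and that of complex IV 0.50, 0.41 and 0.23. All 12 of these E76Q medians were above every WT library, and the lowest of each complex was in replicate 3, the E76Q library with the most Mir6236. In E113K the medians of complex III were -0.28, -0.25 and -0.34, below WT (0.03, -0.09 and 0.04), while those of complex II (0.03, 0.02 and 0.10) were at or above WT. After rescaling the complex II medians of E113K were also below WT, at -0.07, -0.12 and -0.07. The E71K and E71Q libraries spread widely on the deposited scale. Complex I stood at 0.10, -0.46 and 0.21 in E71K, and after rescaling its lowest library was at -0.10.

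**Figure D2:**
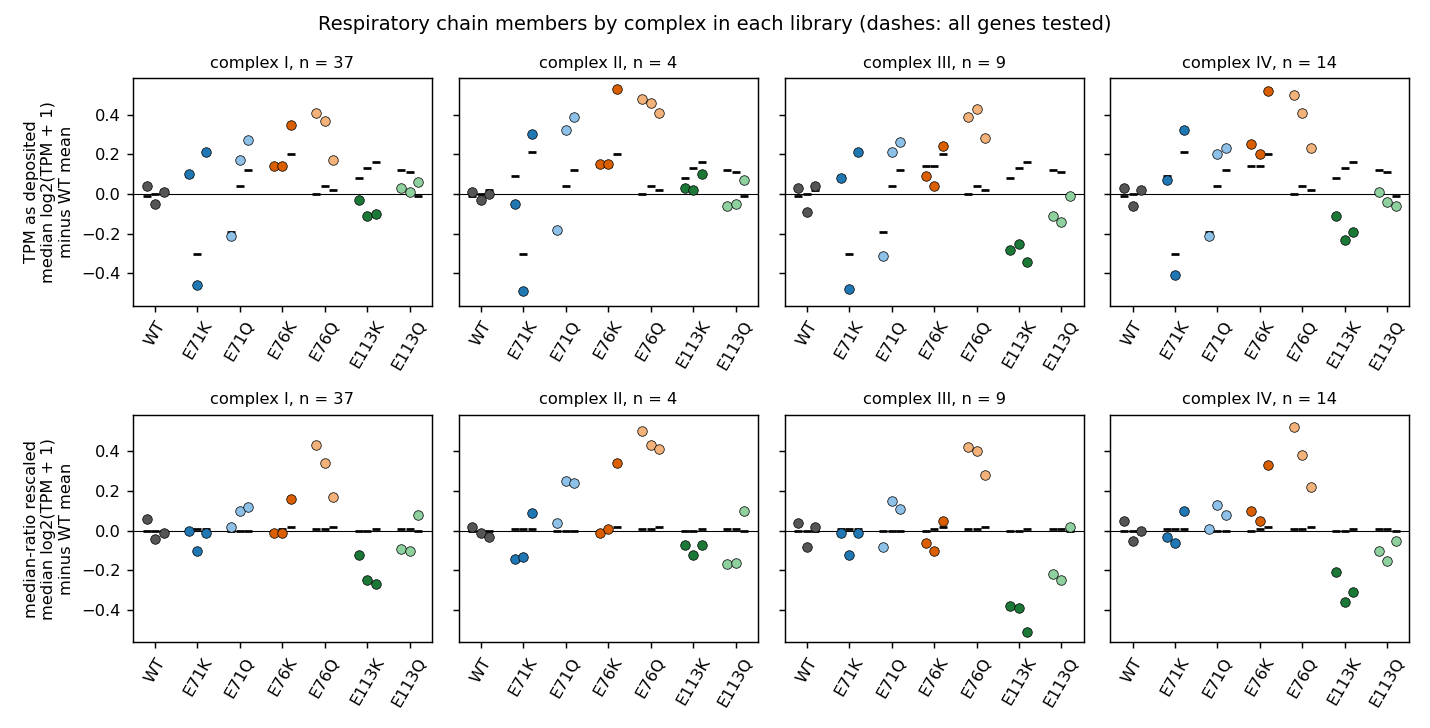
Median log2(TPM + 1) of the members of each complex in each library, minus the gene's WT mean, on deposited TPM (top) and after rescaling (bottom); points are the 3 libraries of a group and dashes the median of all genes tested in that library. E76Q points lie above the dashes in all 4 complexes, and the E113K points of complex III lie lowest, at -0.51 to -0.38 after rescaling.

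In E76Q the rise ran through all 4 complexes. On the deposited scale 14 of 37 complex I members rose and 1 fell, 2 of 4 rose in complex II, 4 of 9 in complex III, and in complex IV 7 of 14 rose and 2 fell. After rescaling 21 rose and 3 fell in complex I, all 4 rose in complex II, 7 rose and none fell in complex III, and 10 rose and 3 fell in complex IV. When the 4 libraries that lay apart were left out, none of them of E76Q or WT, 38 members rose and 5 fell, against 31.7% and 28.2% of all genes. On the deposited scale 14 rose and 3 fell without E76Q replicate 1, and 16 and 3 without E76Q replicate 2. For these and all later counts without 1 library, the share of all genes called is not given here. Whether the E76Q rises stay above that share in such a fit therefore cannot be read from these counts.

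The complex I core holds the flavin and the iron-sulfur clusters, and its 7 nuclear-encoded genes split in E76Q. Ndufs1, which carries iron-sulfur clusters of the electron input module, was 62.0, 54.9 and 61.4 TPM in WT and 86.3, 86.0 and 92.7 in E76Q (log2 fold change 0.56 ± 0.16, limma adjusted p = 0.00731). Ndufs3 (0.70), a subunit of the ubiquinone-reducing module, rose as well. Ndufs8, which carries 2 iron-sulfur clusters of that same arm, went the other way. It was 143, 133 and 141 TPM in WT and 91.5, 96.6 and 85.5 in E76Q, with no overlap (-0.60 ± 0.11, limma adjusted p = 0.000331). Ndufv1, the subunit that binds NADH and flavin, was 96.8, 91.7 and 90.6 TPM in WT and 79.4, 85.4 and 71.3 in E76Q (-0.24, limma adjusted p = 0.105). Its partner Ndufv2 stood at -0.33 (limma adjusted p = 0.0506). After rescaling Ndufs8, Ndufv1 and Ndufv2 all fell. Of the 30 accessory members 11 rose and none fell in E76Q, 18 and none after rescaling.

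Among accessory subunits, Ndufb3 of the membrane arm was 90.5, 78.5 and 85.8 TPM in WT and 165, 165 and 152 in E76Q (0.91 ± 0.17, limma adjusted p = 0.000475), so the lowest E76Q library was well above the highest of WT. Ndufs4, needed for a late step of complex I assembly, was 45.1, 38.7 and 43.3 TPM in WT and 68.0, 67.0 and 59.3 in E76Q (0.60). Ndufa1 (211 ± 20.3 TPM in WT, 286 ± 44.2 in E76Q) did not pass there. Ndufb8, also of the membrane arm, was 292, 292 and 318 TPM in WT and 332, 307 and 276 in E76Q, with overlap.

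In complex II the pair of membrane anchors rose in E76Q on the deposited scale and the catalytic pair did not pass. Sdhc, which with Sdhd forms the ubiquinone site and holds the heme (chromosome 1, 171129157 to 171150640, GRCm38.p6), was 138, 137 and 137 TPM in WT and 263, 274 and 255 in E76Q. This 1.92-fold rise (log2 0.94 ± 0.19, limma adjusted p = 0.000926) was the highest of any member other than the tissue isoform Cox7b2. Sdhd was 112, 108 and 114 TPM in WT and 165, 159 and 155 in E76Q (0.52). The flavoprotein Sdha (122, 125 and 119.8 TPM in WT; 161, 163 and 157 in E76Q) and the iron-sulfur subunit Sdhb (162, 144 and 154; 200.2, 198 and 186) were also higher in every E76Q library, at 0.39 and 0.34, with limma adjusted p = 0.0653 and 0.162. Both passed after rescaling (0.000868 and 0.047).

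In complex III the 4 members that rose in E76Q were all small subunits. Uqcr10, a small subunit beside the Rieske protein, was 387, 355 and 412 TPM in WT and 786, 730.5 and 653 in E76Q (0.91 ± 0.16, limma adjusted p = 0.00021). Uqcrb, Uqcr11 and Uqcrh, also small subunits, rose by 0.60, 0.63 and 0.69 on the log2 scale. A further small subunit, Uqcrq, was 729, 631 and 709 TPM in WT and 905, 929 and 742 in E76Q (0.31) and did not pass (limma adjusted p = 0.0822). The large core proteins on the matrix side did not pass either: Uqcrc1 was 172, 161 and 171 TPM in WT and 161, 159 and 155 in E76Q, and Uqcrc2 had a mean of 111 ± 0.94 in WT and 105 ± 1.35 in E76Q. The electron carriers lay between these. Cyc1, cytochrome c1, was 199, 182 and 205 TPM in WT and 242, 244 and 236 in E76Q (0.30, limma adjusted p = 0.0538), and the Rieske protein Uqcrfs1 was 97.2, 87.7 and 105 and then 119.8, 120.3 and 117 (0.30, adjusted p = 0.0932 in the same limma fit).

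In complex IV, Cox6c, a small subunit of the nuclear-encoded shell, was 967, 886 and 985 TPM in WT and 1719.8, 1578 and 1516 in E76Q (0.76 ± 0.15, limma adjusted p = 0.000764). Cox7c was 769.9, 699 and 826 TPM in WT and 1358, 1207 and 1051 in E76Q (0.65). Cox6a1, Cox7a2, Cox5b and Cox6b1, further subunits of that shell, rose by 0.55, 0.43, 0.41 and 0.41. Cox4i1, the ubiquitous isoform of the largest nuclear-encoded subunit, was 871, 828 and 891 TPM in WT and 1162, 1105 and 980.1 in E76Q (0.32) but did not pass on the deposited scale (limma adjusted p = 0.10). Cox5a, by contrast, was 391.5, 369 and 401 TPM in WT and 384, 401 and 344 in E76Q, with overlapping libraries (-0.04). The calls of Ndufs1, Ndufs3, Ndufs8, Sdhc, Uqcr10, Uqcrb, Cox6c, Cox7c and Cox6a1 held without any 1 of the 6 libraries compared. Those of Uqcr11, Uqcrh, Cox7a2, Cox5b and Cox6b1 were each lost without at least 4 of them, and that of Sdhd without 1.

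**Figure D3:**
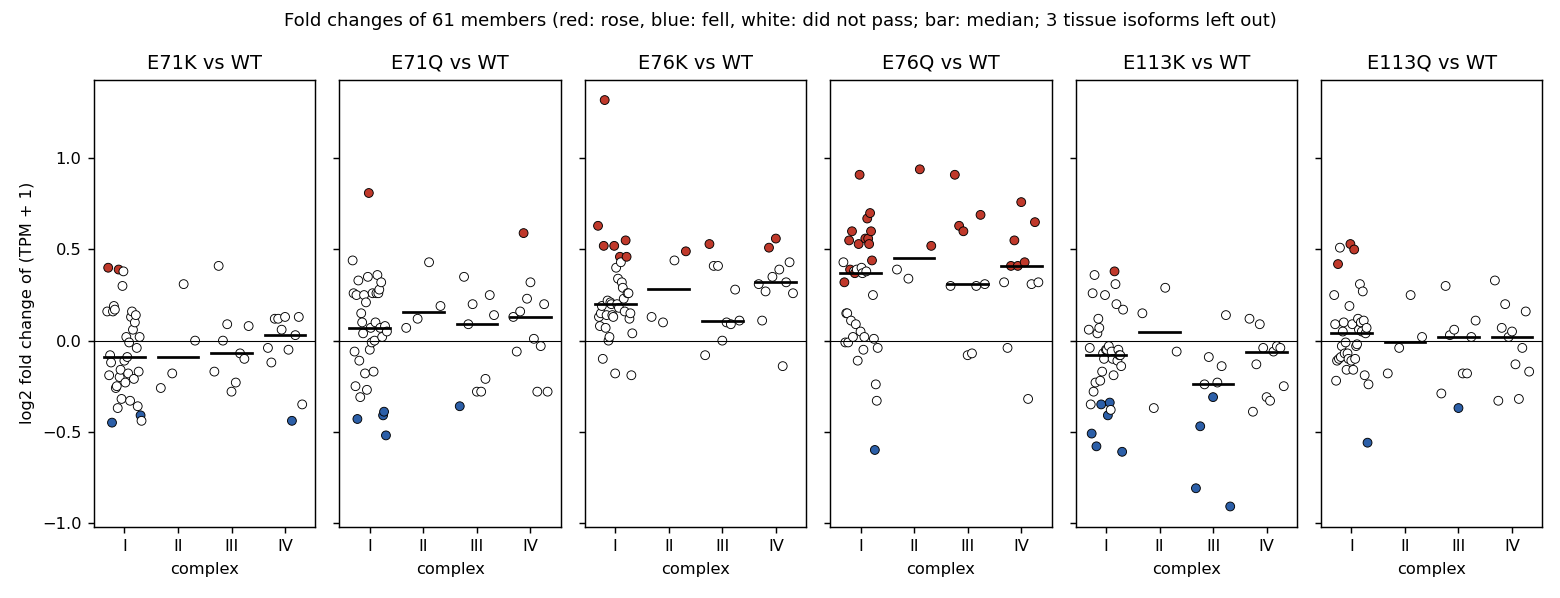
log2 fold change of TPM + 1 against WT for the 61 members other than the 3 tissue isoforms of complex IV, by complex, in each mutant; red points rose, blue points fell, white points did not pass, and bars are medians. In E76Q 26 points are red and 1 is blue; in E76K the point at 1.32 is Ndufa4; in E113K the 2 lowest points, at -0.91 and -0.81, are Uqcrq and Cyc1.

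Apart from the muscle isoforms of complex IV described below, the deepest falls in E113K were in complex III, where 4 of 9 members fell and none rose (8 and none after rescaling). Uqcrq, a small subunit that packs against cytochrome b (chromosome 11, 53427922 to 53430831, GRCm38.p6), was 729, 631 and 709 TPM in WT and 376, 384 and 337 in E113K. This was a log2 fold change of -0.91 ± 0.14 (limma adjusted p = 5.21e-05), and the other 5 mutants had group means of 737 to 859 TPM. Cyc1 (chromosome 15, 76343513 to 76346260) was 112.8, 114 and 105 TPM in E113K against 199, 182 and 205 in WT (-0.81 ± 0.12, limma adjusted p = 3.99e-05). Uqcr10 fell by 0.47 and Uqcrc1 by 0.31 on the log2 scale. The call of Uqcrc1 was lost without any 1 of the 6 libraries compared.

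Ratios between subunits of 1 complex within a library do not depend on its scaling. The ratio of Cyc1 to Uqcrfs1 TPM was 2.03 ± 0.0628 (SD, n = 3) in WT, 1.27 ± 0.0933 in E113K and 1.81 to 2.02 in the group means of the other mutants. The ratio of Uqcrq to Uqcrb was 1.60 ± 0.0777 in WT, 0.908 ± 0.112 in E113K, and 1.31 to 1.68 in the others. In both ratios all 3 E113K libraries lay below every other library. Uqcrb itself was 430 ± 14.8 TPM in WT and 405 ± 26.6 in E113K (-0.09, limma adjusted p = 0.672). It passed after rescaling, at -0.23.

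In complex I, 6 of 37 members fell in E113K and 1 rose (19 and 1 after rescaling). Ndufv2, which carries an iron-sulfur cluster of the NADH-oxidising module, was 150.2, 145 and 151 TPM in WT and 94.9, 96.5 and 100.5 in E113K (-0.61 ± 0.13, limma adjusted p = 0.00119). The same subunit also fell in E71K (-0.41), E71Q (-0.52) and E113Q (-0.56), and was -0.33 in E76Q, where it missed the threshold. The accessory subunits Ndufa5 and Ndufa12 fell by 0.58 and 0.51 in E113K, and Ndufb6, Ndufab1 (the mitochondrial acyl carrier protein) and Ndufb8 by 0.41, 0.35 and 0.34. The calls of Ndufab1 and Ndufb8 were lost without any 1 of the 6 libraries.

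No gene of complex II passed in E113K on the deposited scale. Sdhb was 120.2, 118 and 115 TPM there and 162, 144 and 154 in WT, and Sdhc was 169, 166 and 168 against 138, 137 and 137, so that anchor and iron-sulfur subunit lay on opposite sides of WT (-0.37 for Sdhb and 0.29 for Sdhc, limma adjusted p = 0.116 and 0.231). In complex IV the 2 calls in E113K were the muscle isoforms described below. Cox5a (291, 285 and 309 TPM, against 391.5, 369 and 401 in WT) stood at -0.39 and Cox6c (774, 737 and 771, against 967, 886 and 985) at -0.31. Both had every library below WT and passed only after rescaling (limma adjusted p = 0.0518 and 0.0993 before).

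The E113K counts moved with library choice. Leaving out the 4 libraries that lay apart, 5 members rose and 20 fell, against 39.6% and 25% of all genes. On the deposited scale 7 fell and none rose without WT replicate 1, without WT replicate 3 or without E113K replicate 3, and 8 fell and none rose without E113K replicate 2.

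In E76K a single member stood far from the others. Ndufa4 was 1208, 1124 and 1212 TPM in WT and 2834, 2817 and 3204 in E76K (chromosome 6, 11900372 to 11907450, GRCm38.p6). The rise was 2.49-fold (log2 1.32 ± 0.14, limma adjusted p = 1.43e-06), and 1.16 on the log2 scale after rescaling. The other 5 mutants ranged from 878 to 1661 TPM. NDUFA4 was named for complex I, and is now generally counted as a subunit of complex IV. Its ratio to Cox4i1 in the same library was 2.76 ± 0.0544 in E76K, 1.37 ± 0.0165 in WT and 1.03 to 1.61 in the other group means.

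The remaining E76K rises had log2 fold changes of 0.46 to 0.71, where the median of all genes was 0.16. Ndufa1, a small membrane-arm subunit needed for assembly, rose by 0.63, from 233, 193 and 206 TPM to 304, 285 and 397. Cox6c rose by 0.56, Ndufs4 by 0.55, Uqcr10 by 0.53, Cox6a1 by 0.51 and Sdhd by 0.49. E76K replicate 3 had the highest TPM of the 3 E76K libraries for each of these 6 genes. Only 3 members rose without that library, 4, 5 or 6 without 1 of the WT libraries, and none fell in these fits. With the 4 libraries that lay apart left out, 13 rose and none fell, against 31.2% and 12.9% of all genes.

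E71K and E71Q showed few member calls, and the balance of rises and falls changed with single libraries. In E71K, Ndufa10 of the membrane arm was 145, 112 and 152 TPM against 101, 98.0 and 108 in WT (0.40 ± 0.11, limma adjusted p = 0.00981), a call kept in each fit without 1 of the 6 libraries. Ndufa9 rose by 0.39 and Ndufa2, an accessory subunit of the matrix arm, fell by 0.45 on the log2 scale, calls lost without 4 and 2 of the 6 libraries. Cox7a2l, which joins complexes III and IV into supercomplexes, fell by 0.44 on the log2 scale, a call lost without 5 of the 6 libraries, and E71K replicate 3 (425 TPM) lay within the WT range of 419 to 435. Counted over all members, 5 were called without any 1 of the WT libraries, 2 rose and 15 fell without E71K replicate 3, and 11 rose and 2 fell without E71K replicate 2, the library with the most Mir6236. Without the 4 libraries that lay apart 2 rose and 21 fell, against 13.4% and 27.2% of all genes.

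In E71Q, Ndufb3 was 116, 162 and 177 TPM against 90.5, 78.5 and 85.8 in WT (0.81 ± 0.17, limma adjusted p = 0.00127). Cox6a1, the ubiquitous isoform of its subunit, was 953, 1169 and 1139 TPM against 764, 684 and 706 (0.59 ± 0.13, limma adjusted p = 0.00188). Apart from the muscle isoforms Cox7a1 and Cox6a2, the falls in E71Q were in the core of complex I (Ndufv2 by 0.52, Ndufs7 by 0.41, Ndufs8 by 0.39 on the log2 scale), in Ndufa2 (-0.43) and in Cyc1 (-0.36). Ndufs7 and Ndufs8 hold the clusters nearest to ubiquinone. The calls of Ndufs7 and Cyc1 were each lost without 3 of the 6 libraries and that of Ndufa2 without 2, and these 3 were also lost without the 4 libraries that lay apart. Without E71Q replicate 1 the count was 14 risen and 4 fallen members, and without the 4 libraries that lay apart it was 25 and 4, against 35.3% and 24.1% of all genes.

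E113Q had the fewest member calls of the 6 mutants. Ndufb3 (123 ± 5.79 TPM, against 84.9 ± 6.02), Ndufb7 (344 ± 36.4 against 243 ± 16.6) and Ndufa13 (143 ± 6.12 against 108 ± 9.96) rose, by 0.53, 0.50 and 0.42. Ndufv2 and Uqcrc1 fell by 0.56 and 0.37 on the log2 scale, and the other falls were the isoforms Cox7a1 and Cox6a2. The count went from 7 to 3 or 4 in each fit without 1 of the 6 libraries. Without the 4 libraries that lay apart it was 4 risen and 6 fallen, against 30.2% and 14.2% of all genes.

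**Figure D4:**
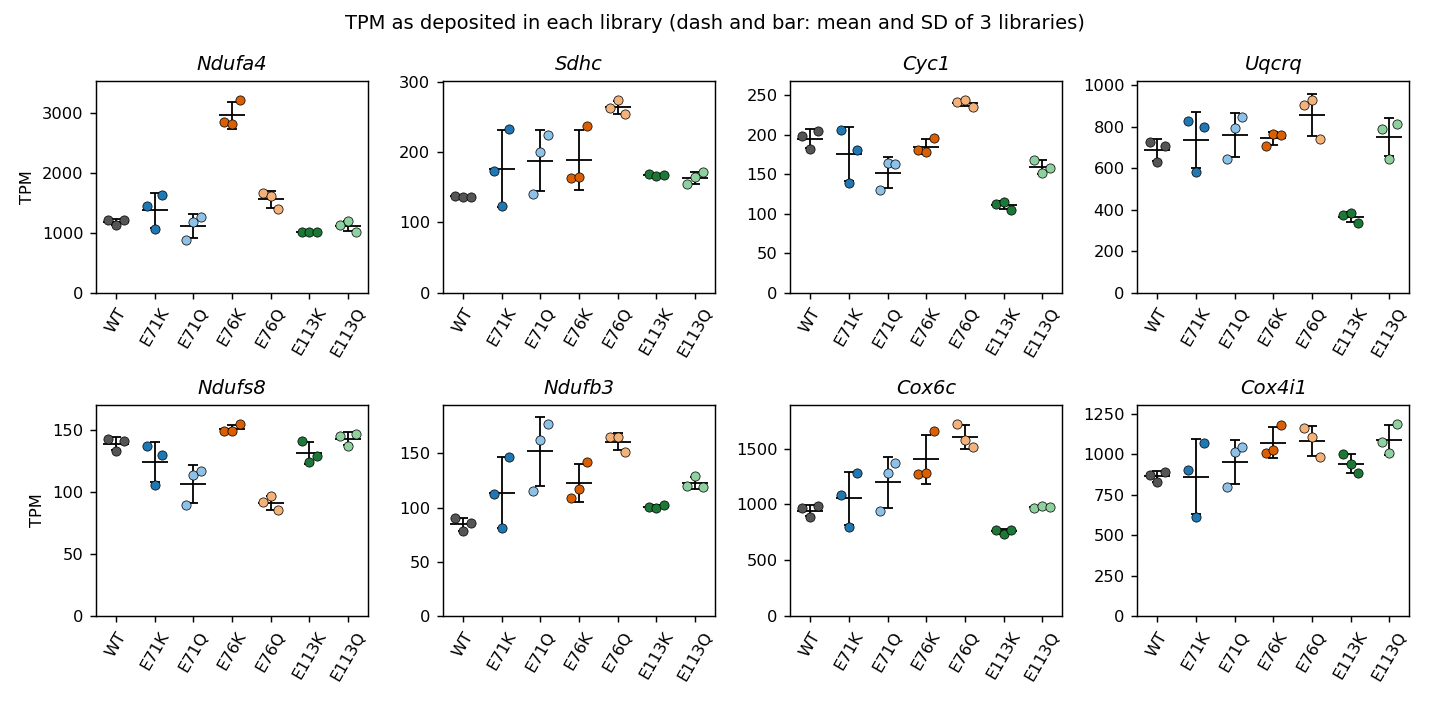
Deposited TPM of 8 members in each library, with the mean and SD of the 3 libraries of a group; axes start at 0. Ndufa4 stands at 2817 to 3204 in E76K alone, Cyc1 and Uqcrq are lowest in E113K, Ndufs8 has its lowest mean in E76Q, and Sdhc, Ndufb3 and Cox6c are higher in every E76Q library than in WT, while Cox4i1 passed in no mutant.

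Lysine was compared with glutamine at the same residue to ask whether the 2 substitutions differed from each other. At E113, none of the members was higher and 7 were lower in E113K than in E113Q, against 14.6% and 13.3% of all genes (1 and 28 after rescaling, against 20.2% and 23.3%). Uqcrq was 792, 644 and 812 TPM in E113Q and 376, 384 and 337 in E113K (-1.03 ± 0.14, limma adjusted p = 5e-05). Uqcr10, with 487, 452 and 479 TPM in E113Q and 281, 288 and 264 in E113K, differed by -0.77 (limma adjusted p = 0.00177). Cox6a2 (-0.89), Ndufa5 (-0.55), Ndufb7 (-0.53), Cyc1 (-0.52) and Ndufa12 (-0.41) were the others. The count fell to 4 without E113K replicate 3 or without E113Q replicate 1, and was 3 higher and 14 lower without the 4 libraries that lay apart (22.6% and 22.4% of all genes).

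At E76, 5 members were higher and 4 lower in E76K than in E76Q, against 23.4% and 8.46% of all genes (5 and 26 after rescaling, against 21.3% and 21.8%). Ndufa4 (0.93 ± 0.14, limma adjusted p = 8.72e-05) and Ndufs8 (0.72 ± 0.11, limma adjusted p = 8.1e-05) were the called members other than isoforms that differed most. Ndufs8 was 149, 149 and 154 TPM in E76K and 91.5, 96.6 and 85.5 in E76Q, and Ndufv1 was higher in E76K by 0.39. Ndufs3, Cyc1 and Ndufa9 were lower in E76K, at -0.54, -0.38 and -0.35. Without the 4 libraries that lay apart 5 were higher and 18 lower, against 32.5% and 17.2% of all genes.

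At E71, 3 members were higher and 1 lower in E71K than in E71Q, against 12.8% and 12.3% of all genes (8 and 11 after rescaling, against 21.8% and 21.3%). Ndufa5 was higher by 0.48, from 160.3, 212 and 205 TPM in E71Q to 322, 218 and 274 in E71K, and Cox6a1 was lower (-0.47). These counts moved with single libraries. They were 2 higher and 17 lower without E71K replicate 3, 10 and 0 without E71K replicate 2, 2 and 9 without E71Q replicate 1, 0 and 2 without E71K replicate 1, 1 and 0 without E71Q replicate 2 and 2 and 0 without E71Q replicate 3. Without the 4 libraries that lay apart they were 2 and 36, against 15.1% and 38.6% of all genes.

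The lysine minus glutamine difference itself differed between E71 and E76 for 5 members, against 21.7% of all genes, by an interaction term in the same limma fit. Between E71 and E113 it differed for 8 (32.7% of all genes) and between E76 and E113 for 7 (29.5% of all genes). For Uqcrq the difference at E113 was below that at E71 by 0.97 and below that at E76 by 0.83. For Ndufa4 the difference at E76 exceeded that at E71 and at E113, the latter by 1.06.

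Complex IV has tissue-restricted isoforms of several subunits, and 3 of them had a mean above 1 TPM. Against WT in E71K, E71Q and E76Q, these 3 had the largest fold changes of all members. In E76K the change of Ndufa4 was larger than theirs. Cox7a1, the heart and skeletal muscle isoform of subunit VIIa, was 9.86, 9.20 and 7.39 TPM in WT. It fell in every mutant except E76K, with log2 fold changes of -2.00 in E71K, -2.61 in E71Q, -2.50 in E76Q, -2.52 in E113K and -2.07 in E113Q. It is listed at 0.00 in 1 library each of E71Q, E76Q and E113K. In E76K it was 3.34, 4.29 and 10.8 TPM (-0.59, limma adjusted p = 0.355), so replicate 3 there lay above all WT libraries and the other 2 below them. As a share of the summed TPM of Cox7a1 and the ubiquitous Cox7a2, it was 3.6% ± 0.456 in WT and 0.253% to 1.89% in the group means of the mutants. With a pseudocount of 0.1 the E71K and E113Q falls missed the threshold (limma adjusted p = 0.0991 and 0.0795).

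Cox6a2, the heart and skeletal muscle isoform of subunit VIa, was 5.43, 5.25 and 6.03 TPM in WT and 6.91, 5.88 and 7.30 in E76K, which overlapped. It fell in E71K (-1.24), E71Q (-2.07), E76Q (-1.37), E113K (-1.63) and E113Q (-0.74), each with all 3 libraries below WT. The E113Q fall missed the threshold without the 4 libraries that lay apart (limma adjusted p = 0.0637) and with a pseudocount of 0.1 (0.091). In E76Q both muscle isoforms fell, while 26 of the 61 members other than tissue isoforms rose (41 after rescaling). Of 8 striated muscle markers, 2 had a mean of at least 1 TPM in WT, in E76K and in E71K, 1 in E113K and none in E71Q, E76Q and E113Q. Their summed level was 3.34 to 4.28 TPM in WT, 4.29 to 5.78 in E76K, 3.79 to 9.02 in E71K, 1.55 to 3.01 in E113K, and 0.835 to 2.80 in the other 3 groups. Their part in the fall of the isoforms was not tested.

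Cox7b2, a paralogue of Cox7b known mainly from testis, went the other way. It was 0.561, 1.14 and 0.42 TPM in WT and 19.8, 12.5 and 13.9 in E71K (3.26 ± 0.22, limma adjusted p = 3.85e-09), the largest fold change of any member. It also rose in E71Q (2.41), E76Q (1.59) and E76K (0.71), and in E113K (0.422 ± 0.145 TPM) and E113Q (1.12 ± 0.465) it overlapped WT. The E76K rise missed the threshold with a pseudocount of 5 (limma adjusted p = 0.144) and with quantile normalization (0.0603). Cox7b2 made up 0.364% ± 0.214 of the summed Cox7b and Cox7b2 TPM in WT and 7.14% ± 1.62 in E71K. Cox7b itself stayed at 191 to 249 TPM in the group means. All 3 isoforms are low next to their ubiquitous partners, and fold changes on log2(TPM + 1) understate the change of genes near 0.

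**Figure D5:**
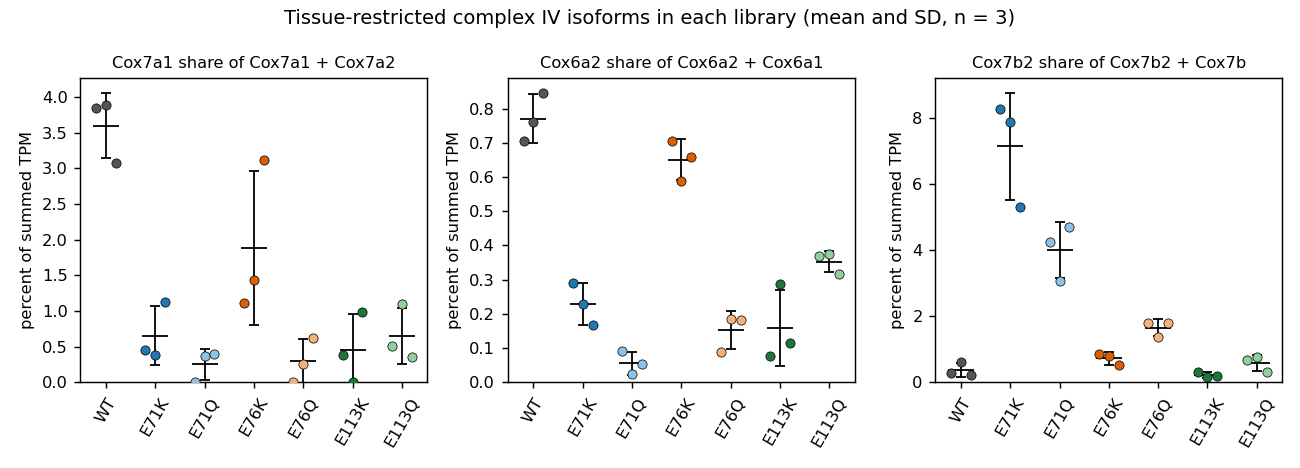
Share of the tissue-restricted isoform in the summed TPM of the isoform and its ubiquitous partner, in percent, for Cox7a1, Cox6a2 and Cox7b2; points are libraries, dashes and bars the mean and SD of 3. WT and E76K hold the highest shares of Cox6a2 (0.771% and 0.651%), and E71K and E71Q the highest of Cox7b2 (7.14% and 4.01%).

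Of 14 regulators of these genes, 3 rose and 3 fell in E76Q (21.4% each, against 22% and 22.4% of all genes). In E76K 2 rose (14.3%, against 23.5%), and in E71Q 2 rose and 6 fell (14.3% and 42.9%, against 20.7% and 23.5%). In E113K 4 fell (28.6%, against 20.7%), in E113Q 2 (14.3%, against 12.7%) and in E71K 1 (7.14%, against 14.2%). Ppargc1a, which encodes PGC-1α, was 1.93, 2.02 and 1.72 TPM in WT and 21.8, 23.8 and 25.9 in E76Q (3.10 ± 0.49, limma adjusted p = 8.3e-05). In E76K it was 9.51, 9.46 and 18.2 (2.15), in E71Q 2.42, 8.97 and 10.0 (1.32), and in E71K 3.83, 2.93 and 19.5, which did not pass. In E113Q, Ppargc1a was 3.46, 3.76 and 6.78 TPM. In E71K, E71Q, E76K and E113Q the library that lay apart was thus also the one that differed most in Ppargc1a. Esrra, the estrogen-related receptor alpha that PGC-1α coactivates, was 18.7, 17 and 17.4 TPM in WT and 29.3, 28.3 and 29.2 in E76Q (0.68), and rose by 0.56 in E76K. Nrf1, Gabpa, Pprc1 and Ppargc1b were not higher in E76Q, while Tfb2m, described below, rose there. Nrf1 was 15.7, 15.2 and 14.8 TPM in WT and 13.1, 14.1 and 13.8 in E76Q. Gabpa, which encodes part of GABP, was 38.3, 43.2 and 43.8 TPM in WT and 38.9, 37.8 and 43.4 in E76Q, with overlap. Pprc1 was 20.2, 19.6 and 20.97 TPM in WT and 14.05, 15.1 and 14.2 in E76Q. Ppargc1b was 1.45, 2.21 and 1.63 TPM in WT and 0.51, 0.452 and 0.39 in E76Q.

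Among regulators that act on mitochondrial DNA, members went both ways. Tfam, which packages and transcribes mitochondrial DNA, had a mean of 25.7 TPM in WT and fell in E71K, E71Q, E76Q, E113K and E113Q by 0.37, 0.75, 0.34, 0.65 and 0.44 on the log2 scale. Tfb1m, a methyltransferase of the mitochondrial ribosomal RNA, fell in E71Q, E76Q, E113K and E113Q by 0.51, 0.94, 1.20 and 0.58. Its homologue Tfb2m, the initiation factor of mitochondrial transcription, rose in E71Q and E76Q by 0.66 and 0.48. Genes encoded by mitochondrial DNA were not analysed here.

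Assembly factors build the complexes without being part of them. Of 45 assembly factors 13 rose and 2 fell in E76Q (28.9% and 4.44%, against 22% and 22.4% of all genes). In E113K 8 rose and 12 fell (17.8% and 26.7%, against 30.3% and 20.7%). Uqcc2, an assembly factor of complex III, fell in E76Q from 633 to 361 TPM (-0.81), although 4 subunits of that complex rose. In E113K, Cmc2 and Cox10, both needed to build complex IV, fell by 0.78 and 0.72 on the log2 scale. Other factors of the same complex rose there: Coa3 by 0.92, Cox19 by 0.66 and Surf1 by 0.47. In E76K, Coa3 rose by 1.26. Of 17 ATP synthase genes 5 rose and none fell in E76Q (29.4%, against 22% of all genes), and 12 and none after rescaling (70.6%, against 30.9%). In E113K none rose and 4 fell (23.5%, against 20.7%), with 8 after rescaling (47.1%, against 30.7%). Atp5g1, which like Atp5g2 and Atp5g3 encodes the ring-forming subunit c, had means of 426 TPM in WT and 242 in E113K (-0.81). The other genes of that subunit were more abundant and differed less. Atp5g2 was 901, 902 and 884 TPM in WT and 778, 757 and 771 in E113K. Atp5g3 was 872, 785 and 849 TPM in WT and 779, 783 and 715 in E113K.

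Of 13 genes of the tricarboxylic acid cycle, 4 rose and 2 fell in E76Q (30.8% and 15.4%, against 22% and 22.4% of all genes), and 5 fell in E113K (38.5%, against 20.7%). Cs, which encodes citrate synthase, fell in all 6 mutants, from 256 TPM in WT to 173 in E76Q (-0.56) and 156 in E113K (-0.72). These are RNA levels, and mitochondrial content was not measured. The E76K fall was the smallest (-0.29, limma adjusted p = 0.0483).

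Promoters of the members were searched for the letters of factors known to act on these genes. RefSeq windows of 300 bases (250 before and 50 after the start, GRCm38.p6) were found for 52 of the 64 members and 9440 of the tested genes. The NRF1 letters CGCATGCGC, on either strand as for all motifs here, were in 5 of 52 members (9.62%) and 4.27% of tested genes. The looser form CGCANGCGC, which includes the strict one, was in 15 (28.8%) and 16%. The GABP letters CCGGAAGT were in 4 members (7.69%, against 9.6%), the YY1 letters AAGATGGCG in 5 (9.62%, against 3.79%), the ESRRA letters TCAAGGTCA in 1 (1.92%, against 0.275%) and the SP1 letters GGGCGG in 22 (42.3%, against 69.4%). Members that rose in E76Q held CGCANGCGC in 6 of 21 windows (28.6%) and the others in 9 of 31 (29%). These shares describe letters in a window, not binding. The 200 bases before the start are shown for 2 members that rose in E76Q and E76K and hold the looser NRF1 form, Cox6a1 (chr5:115348959-115349158, minus strand) and Sdhd (chr9:50603850-50604049, minus strand), and for Ndufa4 (chr6:11907451-11907650, minus strand), which rose most in E76K and has no such match. Capitals mark CGCANGCGC on either strand, and each sequence runs 5′ to 3′ toward the start.
Cox6a1: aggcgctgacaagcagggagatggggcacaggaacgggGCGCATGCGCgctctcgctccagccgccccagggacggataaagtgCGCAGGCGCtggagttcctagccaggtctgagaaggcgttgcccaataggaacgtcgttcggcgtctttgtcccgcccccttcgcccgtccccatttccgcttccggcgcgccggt
Sdhd: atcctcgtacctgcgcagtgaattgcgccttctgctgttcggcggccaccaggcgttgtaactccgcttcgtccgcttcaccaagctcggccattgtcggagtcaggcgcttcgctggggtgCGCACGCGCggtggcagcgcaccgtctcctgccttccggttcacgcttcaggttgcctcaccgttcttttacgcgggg
Ndufa4: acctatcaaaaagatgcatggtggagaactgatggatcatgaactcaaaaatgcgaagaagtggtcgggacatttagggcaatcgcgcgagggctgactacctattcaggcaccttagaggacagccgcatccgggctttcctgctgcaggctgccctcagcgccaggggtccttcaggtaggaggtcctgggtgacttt

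Across all 7 groups, 44 of the 64 members (68.8%) passed the limma F test for any difference, against 77.1% of all genes. By complex these were 26 of 37, 3 of 4, 7 of 9 and 8 of 14. The fold changes of members were less scattered than those of a wider set of genes. The SD of log2 fold changes over the 61 members other than tissue isoforms was 0.32 in E76Q and 0.27 in E113K. Over the 4572 tested genes with a mean TPM at or above the lowest of these members, themselves included, it was 0.85 and 0.88. An SD leaves out any shift that the members share, so it does not give the size of the changes. Members have short transcripts, with a median annotated length of 648 bases against 2130 over the tested genes. The log2 fold change was correlated with log2 length across the 61 members, which share libraries and are not independent replicates. The Pearson coefficient was -0.22 in E76Q, -0.368 in E76K and 0.171 in E113K. The part of transcript length in these results was not tested.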

How the data were processed

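RNA sequencing libraries of 21 C3H/10T1/2 cultures in 7 H2B groups were analysed. Per the labels' protocols, RNeasy columns gave the RNA and the NEBNext Ultra II kit the libraries. The deposited values are TPM per gene. Per the submitters' processing notes, Salmon, featureCounts 1.4.4, DESeq and build mm10 were used, and which of these made the TPM is not given in the sources used here. TPM keeps no read total, so depth is unknown and no counting interval can be given. No 2 libraries were identical.

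All genes averaging 1 TPM or more were tested as log2(TPM + 1) in a linear model of the 7 groups on all 21 libraries (limma 3.58.1, R 4.3.3, variances moderated along an intensity trend, with 14 residual degrees of freedom and 3.19 from the prior). Benjamini-Hochberg adjustment ran over all 12192 genes of a comparison, with 0.05 as the threshold. Comparisons were each mutant with WT (all 6 share the WT libraries), lysine with glutamine at each residue, the differences of these between residues, and an F test. P-values rest on the spread between the 3 libraries of a group, pooled for each gene over all 7 groups. The spread of every group thus enters each comparison. The median-ratio rescaling used 8056 genes above 5 TPM in every library. A library was set apart when its group spanned more than 10 on the first principal component of the group-centred values, computed without that group, and it lay farthest from its mates. Gene positions and promoter windows are from RefSeq (GRCm38.p6), by Entrez identifier for positions. A gene's length is the median over its protein-coding transcripts in GENCODE, matched by symbol. All 64 members enter the counts, and some genes are not reported here by name. Named are a fixed core (Ndufs1, Ndufv1, Ndufa1, Ndufb8, Ndufs4, Sdha, Sdhb, Sdhd, Uqcrc1, Uqcrfs1, Cyc1, Cox4i1, Cox5a, Cox6c, Cox7c), isoform pairs, and per mutant the 3 called members that rose most and the 3 that fell most (2 of each for lysine against glutamine). Further members and list genes were named after their values were seen. The members and all gene lists were chosen with earlier results of these data known. The fit was tested on simulated data. Alternatives were the pseudocount, the filter, other scalings, the variance model, the replicate block, only the libraries compared, and libraries left out.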

Additional observations from a re-analysis of the deposited data

Results flagged for a closer look

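The difference between lysine and glutamine at 1 residue was set against that at another residue by an interaction term in the same limma fit, and 20 members' values passed (adjusted p below 0.05). Between E71 and E76 there were 5 such members, where 21.7% of all genes passed. The lysine minus glutamine log2 difference at E71 minus that at E76 was -0.62 for Ndufa4, -0.73 for Ndufb7, -0.50 for Ndufs8, 0.57 for Cyc1 and 1.74 for Cox7b2. Ndufb7, an accessory subunit of complex I, passed neither lysine-glutamine comparison at these residues by itself.

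Between E71 and E113 there were 8, where 32.7% of all genes passed. The difference at E71 minus that at E113 was 0.58 for Ndufa12, 1.03 for Ndufa5, -0.66 for Sdha, 0.71 for Cyc1, 0.83 for Uqcr10, 0.97 for Uqcrq, 1.72 for Cox6a2 and 1.41 for Cox7b2. For Cyc1, Uqcr10 and Uqcrq of complex III the lysine group was lower than the glutamine group at E113.

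Between E76 and E113 there were 7, where 29.5% of all genes passed. The difference at E76 minus that at E113 was 1.06 for Ndufa4, 0.92 for Ndufb7, 0.84 for Ndufs8, 0.60 for Ndufv1, 0.83 for Uqcrq, 2.49 for Cox6a2 and 2.35 for Cox7a1. In each pair of residues the share of the 64 members that passed was below that of all genes. Groups of 3 libraries are too small for a test of single outlying libraries.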

How the results depend on the processing

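Counts of called members depended on the scaling and on single libraries. Calls over all genes moved as well. In E71K 12.5% of all genes rose and 14.2% fell on the deposited scale, and 21.6% and 20.5% after median-ratio rescaling. Where no share of all genes is given for a setting, a change in these counts is not a result about the members. For E71K, E71Q, E76K, E76Q, E113K and E113Q against WT, lysine against glutamine at E71, E76 and E113, and the interactions E71 with E76, E71 with E113 and E76 with E113, the reported limma counts were 8, 10, 12, 30, 13, 7, then 4, 9, 7, then 5, 8 and 7. With Mir6236 left out they were 23, 34, 28, 49, 27, 16, then 19, 31, 28, then 19, 20 and 19. With median-ratio rescaling they were 21, 34, 22, 48, 37, 20, then 19, 31, 29, then 17, 20 and 18. With quantile normalization they were 24, 33, 22, 49, 30, 20, then 19, 31, 30, then 23, 26 and 20. Rescaling without the 4 libraries that lay apart, an alternative chosen after seeing the data, gave 30, 42, 24, 48, 45, 26, then 36, 46, 32, then 21, 31 and 30.

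Without those 4 libraries on the deposited scale the counts were 23 in E71K, 29 in E71Q and 25 in E113K, then 38, 23 and 17, then 18, 25 and 17. With only the libraries compared in the fit they were 3 in E71K, 26 in E76K, 48 in E76Q, 39 in E113K and 21 in E113Q. Those were 4.69%, 40.6%, 75%, 60.9% and 32.8% of members, against 11.8%, 50.3%, 67.9%, 72.6% and 40.1% of all genes. In that fit 19 members differed at E76, 21 at E113, 1 between E71 and E76, and 18 between E76 and E113 (29.7%, 32.8%, 1.56% and 28.1%, against 45.3%, 34.6%, 13.7% and 43.8% of all genes). At E71 limma then called 0 members, with 2 at an unadjusted p below 0.05, and no other tool was run. With a filter of 5 TPM there were 4 in E71K and 2 at E71.

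Leaving out 1 library gave 5 to 17 calls in E71K, 7 to 18 in E71Q, 3 to 9 in E76K, 17 to 32 in E76Q, 7 to 9 in E113K and 3 to 4 in E113Q. It gave 1 to 19, 6 to 11 and 4 to 8 for lysine against glutamine, 2 to 12, 7 to 17 and 7 to 11 for the interactions, and 31 to 58 for the F test. With 2 libraries left in a group, the variance is shared with the other groups. Same-numbered libraries did not deviate together (median correlation -0.00111, and 7 of 21 libraries matched their own number best), so replicate numbers were not taken as pairs. With a replicate block the counts were 8, 11, 12, 31, 12 and 7 against WT, and the block moved no count by over 1.5 times. Among members named, 64 alternative values missed the threshold, 47 of them with 1 library left out, 676 kept their direction and side of it, and none reversed. The cause of these differences was not tested. Depth is unknown, so its limit on low members such as Cox7a1, Cox6a2 and Cox7b2 could not be given.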
